A study of Mus musculus with 36 samples.

Results

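The 10 genes described here encode proteins of the surface of lipid droplets and the lipases that break down stored or circulating triglyceride: Adfp (now named Plin2), Cidea, Cideb, Cidec, Pnpla2, G0s2, Lipe, Mgll, Lpl and Lipc. They were found by the gene name of each array probe or by the current symbol of its accession. All 10 were on the array, with 16 probes, of which 14 belonged to the 21781 probes (13042 genes with a symbol) of the authors' table. Expression was measured in the livers of 36 adult male mice (C57BL/6J in the sample descriptions, C57BL/6JOlaHsd in the study's methods), each on its own array, in 3 groups of 12. All mice first received a mild-high-fat diet with 30% of its energy as fat, for 3 weeks according to the sample descriptions. The t=0 group was killed at that point. The HF group stayed on the same diet for 12 more weeks without any addition, and the HF-Q group received it for 12 weeks with 0.33% (w/w) quercetin, a plant flavonoid. All animals had fasted for at least 2 hours. No group had a low-fat diet, and the HF and the t=0 mice differed in age as well as in time on the diet, which cannot be told apart.

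A lipid droplet is a core of triglyceride and cholesteryl ester inside a single layer of phospholipid that carries coat proteins. Perilipin 2, the product of Adfp, is the main coat protein of hepatocyte droplets, and the CIDE proteins (Cidea, Cideb, Cidec) promote droplet fusion and growth, with Cideb also acting in the loading of VLDL. Inside the cell, triglyceride is hydrolysed in sequence by ATGL (Pnpla2), which the G0s2 protein inhibits, by hormone-sensitive lipase (Lipe) and by monoglyceride lipase (Mgll). Lipoprotein lipase (Lpl) and hepatic lipase (Lipc) act outside the cell on circulating lipoproteins. Adult hepatocytes express Lipc strongly and Lpl hardly, whereas Lpl is expressed by macrophages, adipocytes and muscle.

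Values are log2 signals of the mouse's own Cy5-labelled cRNA, scaled by the authors against a Cy3-labelled pool of all livers on the same array. A gene is given by its brightest probe, and a difference was called when its Benjamini-Hochberg adjusted p over all 21781 probes, from limma, was below 0.05. The hepatocyte marker albumin (Alb) was bright, with mean log2 signals of 19.22, 19.25 and 19.24 in the t=0, HF and HF-Q groups. Alb, Apoa1 and Tat were not called in any comparison. Ttr, another hepatocyte marker, was called lower in HF-Q against t=0 (-0.33, adjusted p = 0.0377, limma). The replicates were separate mice. Of the spots, 56.4% to 67.4% were well above background on 35 arrays and 96.7% on the array of HF-Q replicate 2, which stood apart. Another liver, HF replicate 5, held transcripts of the exocrine pancreas: pancreatic lipase (Pnlip) had a log2 signal of 20.22 there and 7.44 to 8.69 in the other livers. HF-Q replicate 8 stood apart in brown adipocyte genes and is described with Cidea.

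**Figure D1:**
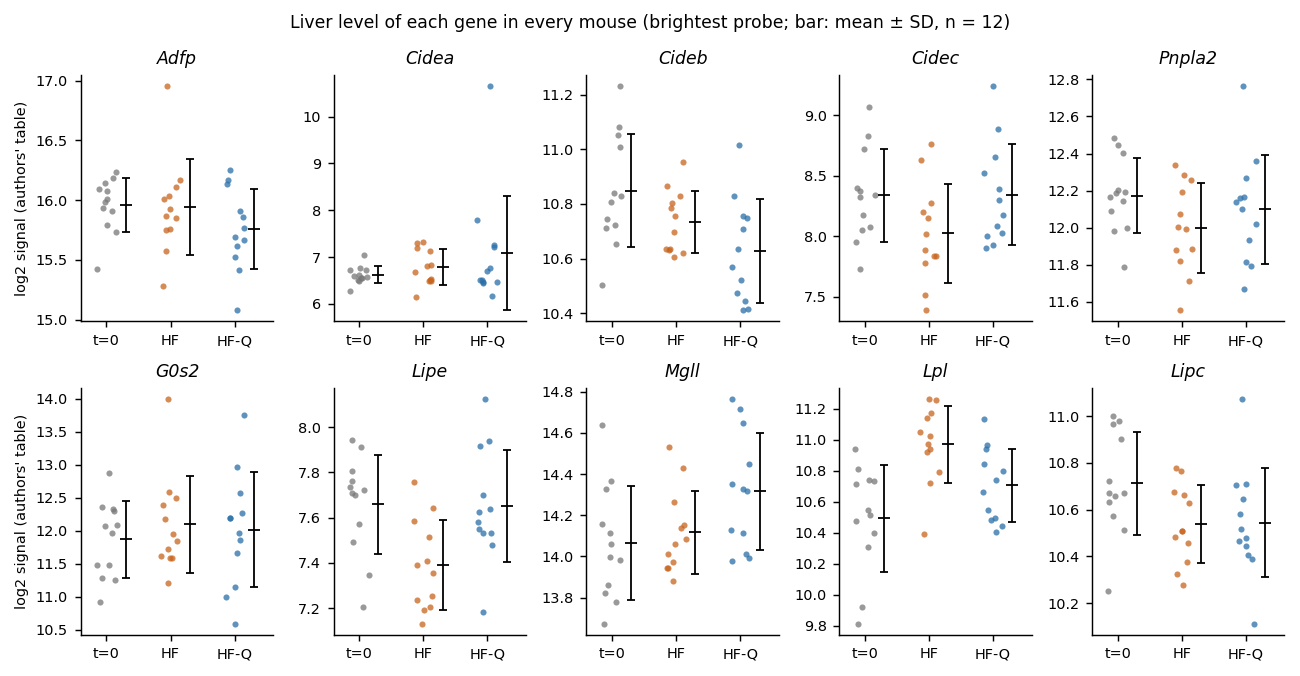
Log2 signal (y axis, authors' table) of the brightest probe of each of the 10 genes in the 12 livers of the t=0, HF and HF-Q groups; each point is a mouse, and the bars give mean ± SD. The groups overlapped for every gene, Lpl lay highest in the HF group, and Cidea (HF-Q replicate 8) and Adfp (HF replicate 1) each had a liver far above the others.

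By their brightest probes, Lpl was called higher and Lipe lower after 12 weeks on the HF diet than at t=0. The other 8 genes were not called by theirs. Lpl was 1.39-fold higher and Lipe 1.21-fold lower. Thus 2 of the 10 genes were called in HF against t=0, 1 higher and 1 lower, where 21.3% of all probes were called, 10.9% higher and 10.4% lower. The 2 of 10 were no more than the share of all probes. The Lpl call held under 12 of 12 alternative settings, and the Lipe call under 8 of 12 only. A dimmer probe of Pnpla2 was also called lower (-0.40, adjusted p = 0.00387, limma). The median log2 difference of the 10 genes was -0.07, against 0.00 over all probes (-0.00473), with 4 genes higher and 6 lower. In whole liver, fewer cells of a type and less RNA per cell cannot be told apart, which holds for each value below.

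Lpl (probe A_51_P259296, chr8:71835357-71835416 of mouse build mm8) had log2 signals of 9.81 at the lowest, 10.53 at the median and 10.94 at the highest in the t=0 group, of 10.39, 11.00 and 11.26 in the HF group, and of 10.40, 10.70 and 11.13 in the HF-Q group. The groups overlapped, but 11 of 12 HF livers lay above the t=0 median, and the HF mean was the higher one on 9 of 9 slides. The log2 difference of HF against t=0 was 0.48 (SE 0.11, 95% interval 0.24 to 0.71, adjusted p = 0.00416, limma). The second Lpl probe (A_52_P257812, chr8:71830140-71830199) gave 0.28 (SE 0.09, adjusted p = 0.0338, limma), with 12 of 12 HF livers above the t=0 median. The brightest probe was called under 12 of 12 alternative settings (log2 difference 0.42 to 0.52), and the second probe under 10 of 12. Without HF replicate 5 the differences were 0.46 and 0.26, still called.

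Since macrophages express Lpl, their markers were examined beside it. None of the 7 macrophage and Kupffer cell markers (Adgre1, Cd68, Clec4f, Cd5l, Marco, Vsig4, Timd4) was called in HF against t=0, but all 7 differences were positive, with a median of 0.31. They ranged from 0.11 for Vsig4 (adjusted p = 0.584, limma) to 0.82 for Marco (adjusted p = 0.205), and Adgre1, the classical surface marker of mouse macrophages, had 0.43 (adjusted p = 0.0557). The summed signal of the 7 genes, as log2, ranged from 14.13 to 16.07 (median 14.76) in the t=0 group, from 14.81 to 15.94 (median 15.21) in the HF group and from 14.77 to 15.61 (median 15.19) in the HF-Q group. Their part in the Lpl difference was not tested. Of the 6 white adipocyte markers, Adipoq, Lep, Retn and Plin1 had no probe in the authors' table, and Fabp4 (0.13, adjusted p = 0.294, limma) and Cfd (0.14, adjusted p = 0.863) were not called. Adipoq had a median signal of 1.39 times its background over the 36 arrays. Across the 36 livers with group means removed, the genes most like Lpl of 13032 searched were Itm2c (Pearson r = 0.75, Spearman rho = 0.61), Tubb4a (r = 0.70, rho = 0.69) and C1qb, a chain of complement C1q (r = 0.69, rho = 0.64).

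Lipe (probe A_51_P435366, chr7:25089715-25091968, minus strand) was dim. Its log2 signals were 7.20 at the lowest, 7.72 at the median and 7.94 at the highest in the t=0 group, 7.13, 7.37 and 7.76 in the HF group and 7.18, 7.60 and 8.12 in the HF-Q group. The HF livers were the lower ones, with 11 of 12 below the t=0 median, while the HF-Q livers spanned the t=0 range. The log2 difference of HF against t=0 was -0.27 (SE 0.08, 95% interval -0.44 to -0.10, adjusted p = 0.0214, limma), and the second probe (A_51_P435363, chr7:25089569-25089628) gave -0.21 (adjusted p = 0.0342) and was called under 7 of 10 alternatives, with -0.058 (adjusted p = 0.513) by loess log ratios without a filter. The call of the brighter probe depended on the scaling. It was kept under 8 of 12 alternatives and lost under loess log ratios (-0.10, adjusted p = 0.341), the same without a filter on dim probes (-0.10, adjusted p = 0.48), the log ratios of the scanner software (-0.34, adjusted p = 0.0648) and quantile normalization (-0.24, adjusted p = 0.0591). The probe's median signal was 3.7 times the local background, which had not been subtracted in the authors' values, so that differences of dim genes are compressed. The genes most like Lipe across livers were Polm (r = 0.69, rho = 0.63), Tfap4 (r = 0.65, rho = 0.56) and Aifm2 (r = 0.64, rho = 0.67).

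ATGL was measured by a pair of probes that did not give the same call. The brighter one (A_51_P197213, chr7:141311351-141311410) had log2 signals of 11.79 at the lowest, 12.18 at the median and 12.48 at the highest in the t=0 group, of 11.55, 12.00 and 12.34 in the HF group and of 11.67, 12.12 and 12.77 in the HF-Q group. These ranges lay over each other, and the difference of HF against t=0 was -0.17 (SE 0.09, adjusted p = 0.153, limma). The dimmer one (A_52_P681771, chr7:141310521-141310580) had 9.23, 9.57 and 9.87 in the t=0 group, 8.69, 9.21 and 9.46 in the HF group and 8.76, 9.42 and 9.88 in the HF-Q group. All 12 HF livers lay below the t=0 median of this probe, and the HF mean was lower on each of the 9 slides. Its difference was -0.40 (SE 0.09, 95% interval -0.59 to -0.20, adjusted p = 0.00387, limma), and it was called under 12 of 12 alternatives (-0.46 to -0.35). The brighter probe was called under 1 of 12, the log ratios of the scanner software (-0.23, adjusted p = 0.0353).

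G0s2, whose protein inhibits ATGL, and Mgll, the last enzyme of the sequence, were not called in HF against t=0. G0s2 (A_52_P681391, chr1:194973455-194973514, minus strand) had a difference of 0.23 with a wide 95% interval of -0.27 to 0.73. Mgll (A_51_P139920, chr6:88793933-88793992) had a difference of 0.05 with an interval of -0.14 to 0.25, and its second probe gave 0.12 (-0.04 to 0.28). The sign of the brighter Mgll probe turned under 4 alternatives, where its value was -0.0157 to -0.0038.

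None of the coat proteins was called in HF against t=0. Adfp (A_51_P258150, chr4:86128003-86128062, minus strand) had log2 signals of 15.42 at the lowest, 16.00 at the median and 16.24 at the highest in the t=0 group, 15.28, 15.89 and 16.96 in the HF group and 15.08, 15.73 and 16.25 in the HF-Q group. The groups lay over each other, with a difference of -0.02 (95% interval -0.28 to 0.23), which became 0.04 without HF replicate 5, the lowest HF liver for Adfp. Cidec (A_51_P490456, chr6:113390476-113390535, minus strand) had 7.73, 8.33 and 9.07 in the t=0 group, 7.39, 7.96 and 8.76 in the HF group and 7.90, 8.24 and 9.24 in the HF-Q group. Of the 12 HF livers, 10 lay below the t=0 median, and the difference was -0.31 (SE 0.15, adjusted p = 0.131, limma). Cideb, the hepatocyte member of the family (A_52_P512365, chr14:54709221-54709280, minus strand), had a difference of -0.11 (-0.25 to 0.03), and Cidea one of 0.17 (-0.06 to 0.40). Hepatic lipase (Lipc, A_51_P263993, chr9:70612109-70615785, minus strand), the other extracellular lipase, had -0.18 (-0.34 to -0.02, adjusted p = 0.106, limma) and was called under 3 of 12 alternatives, with adjusted p of 0.0306 to 0.0397. Lipc had log2 signals of 10.25 to 11.00 (median 10.67) at t=0, 10.28 to 10.78 (10.51) in HF and 10.11 to 11.07 (10.50) in HF-Q. The Lipc probe was no brighter than the Lpl probe, with median signals of 30.5 and 33.5 times the local background.

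**Figure D2:**
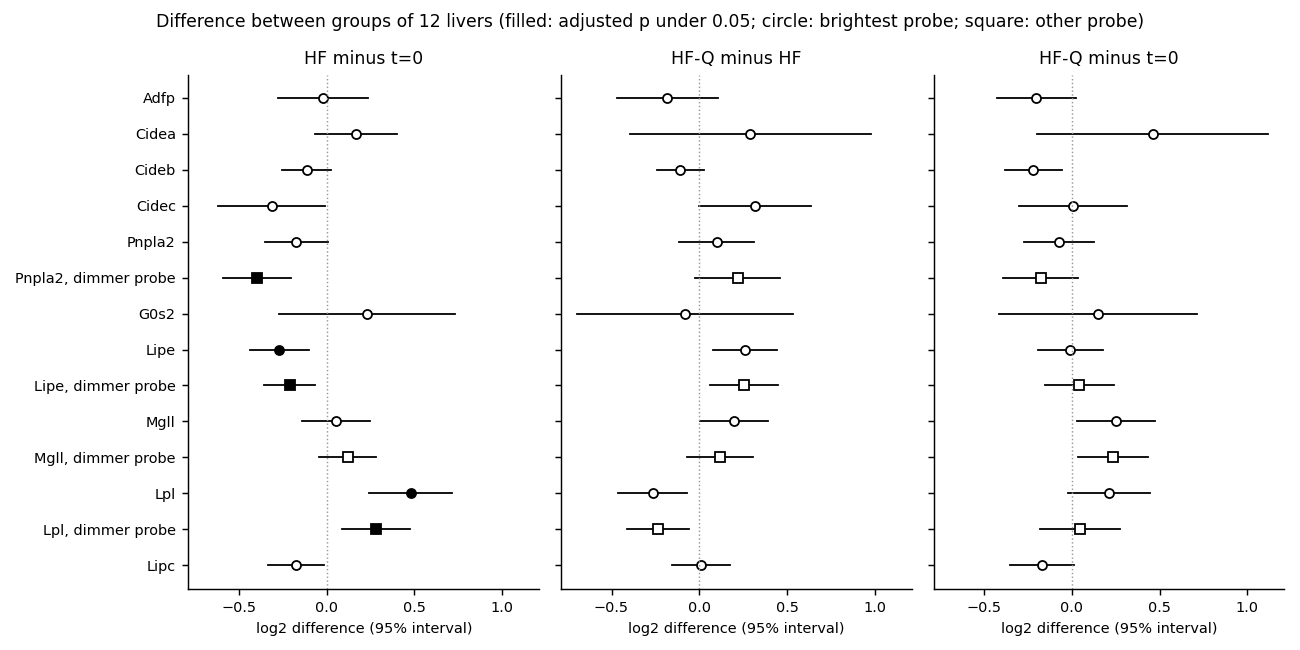
Log2 difference between group means (x axis) with its 95% interval for the 14 probes of the 10 genes in HF against t=0, HF-Q against HF and HF-Q against t=0; filled symbols had an adjusted p under 0.05. Filled symbols appear for both Lpl and both Lipe probes and for the dimmer Pnpla2 probe in HF against t=0, and in neither of the other comparisons.

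The comparison of HF-Q with HF asks what quercetin changed on the same diet at the same age. None of the 10 genes was called by limma, where 2.36% of all probes were called, 1.49% higher and 0.863% lower, and none was called by the methods' t-test or any other of the 14 alternatives. At an unadjusted p under 0.05 there were 3 (Lipe, Lpl and Mgll), where 15.4% of all probes passed that level. The largest differences were those of Cidec (0.32), Cidea (0.29, and -0.0342 without HF-Q replicate 8), Lpl (-0.27) and Lipe (0.26). The median difference of the 10 genes was 0.05, against 0.01 over all probes.

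For Lpl and Lipe, the genes called in HF against t=0, the HF-Q livers had these values against HF. Lpl had a difference of -0.27 (SE 0.09, 95% interval -0.46 to -0.07, adjusted p = 0.152, limma), with 11 of 12 HF-Q livers below the HF median, and its second probe had -0.24 (adjusted p = 0.171). Lipe had a difference of 0.26 (SE 0.09, 0.08 to 0.44, adjusted p = 0.129, limma), with 11 of 12 HF-Q livers above the HF median, and its second probe had 0.25 (adjusted p = 0.176) with 12 of 12 above. Neither gene passed the test over all probes, although most livers lay on the same side. The macrophage markers had a median difference of 0.00 (-0.00436) here, with 0 of 7 called.

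Among the droplet coat genes, 10 of 12 HF-Q livers lay above the HF median for Cidec (0.32, SE 0.16, 95% interval -0.00065 to 0.64, adjusted p = 0.325, limma). Adfp had a difference of -0.18 (-0.47 to 0.11) and Cideb one of -0.11 (-0.24 to 0.03). For the intracellular lipases, Mgll had log2 signals of 13.88 at the lowest, 14.07 at the median and 14.53 at the highest in the HF group and 13.98, 14.32 and 14.76 in the HF-Q group. Its difference was 0.20 (SE 0.10, 95% interval 0.0017 to 0.39, adjusted p = 0.319, limma), and 9 of 12 HF-Q livers lay above the HF median. The brighter Pnpla2 probe gave 0.10 (-0.11 to 0.31), or 0.0586 without HF replicate 5, and the dimmer one 0.22 (-0.02 to 0.46), and Lipc gave 0.01 (-0.16 to 0.17). G0s2 had a difference of -0.08 with a wide interval, -0.70 to 0.53, and the difference was -0.24 without HF-Q replicate 8 and -0.16 without HF replicate 5.

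Against t=0, the HF-Q group had 0 of 10 genes called by limma, where 11.9% of all probes were called, 6.62% higher and 5.3% lower, and 2 (Cideb and Mgll) at an unadjusted p under 0.05, where 26.5% of all probes passed that level. Cideb had log2 signals of 10.50 at the lowest, 10.82 at the median and 11.23 at the highest in the t=0 group, of 10.61, 10.73 and 10.95 in the HF group and of 10.41, 10.60 and 11.02 in the HF-Q group. Of the 12 HF-Q livers, 10 lay below the t=0 median. The difference was -0.22 (SE 0.08, 95% interval -0.38 to -0.06, adjusted p = 0.0657, limma), and it was called under 3 of 13 alternatives. Mgll had a difference of 0.25 (0.03 to 0.47, adjusted p = 0.13, limma). For Lpl the difference was 0.21 (-0.02 to 0.44) and for Lipe -0.0083 (-0.19 to 0.18), or -0.0513 without HF-Q replicate 2. For G0s2 it was 0.15, and -0.0101 without HF-Q replicate 8. This comparison shares its livers with both others, so that the 3 sets of values do not stand on their own.

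Cidea was low in nearly every liver and highest in HF-Q replicate 8. Its log2 signals were 6.28 at the lowest, 6.58 at the median and 7.04 at the highest in the t=0 group, 6.16, 6.75 and 7.31 in the HF group and 6.16, 6.60 and 10.66 in the HF-Q group. The value of 10.66 was that of HF-Q replicate 8, and the next highest HF-Q liver, replicate 2, had 7.79. Cidea is a gene of brown adipocytes that is low in healthy liver, and its probe had a median signal of 2.07 times the local background. In HF-Q replicate 8 a pair of brown adipocyte genes were the highest of all 36 livers too: Ucp1, the uncoupling protein that defines brown fat, was at 20.6 times its background against a median of 1.23, and Cox8b was at 16.0 times against a median of 1.78. Adipoq, the adipocyte hormone adiponectin, was at 4.74 times, rank 3 of 36, against a median of 1.39. The other white adipocyte markers were mixed in this liver. Plin1 was at 3.39 times (rank 3), Cfd at 4.54 (rank 9) and the brightest Fabp4 probe at 135 (rank 4). The Retn probes were at 1.47 and 1.52 times (ranks 13 and 14), and the Lep spots at 1.19 to 1.47 (ranks 6 to 31). HF-Q replicate 2, the array that stood apart, had 5.15 times for Ucp1, 5.33 for Cox8b and 17.8 for Adipoq. HF-Q replicate 9 had 2.36 times for Ucp1, 2.86 for Cox8b, 3.18 for Adipoq and 3.76 for Cidea. Raised Adipoq was not confined to the HF-Q group: it was at 5.74 times in t=0 replicate 7 and 3.48 in HF replicate 7. In these livers Ucp1 was at 1.17 and 1.8 times its background. Without replicate 8 the Cidea difference of HF-Q against HF went from 0.29 to -0.03, and the difference against t=0 from 0.46 (-0.20 to 1.12) to 0.13. The same liver had the highest Cidec (9.24) and G0s2 (13.76) of the HF-Q group. The other brown adipocyte marker of the list, Cox7a1, was bright in all groups (mean log2 signals of 10.94, 11.65 and 11.59) and was called higher in HF against t=0 (0.71, adjusted p = 8.252e-06, limma). In HF-Q replicate 8 Cox7a1 was at 78.7 times its background, rank 5 of 36, against a median of 56.2. The part of adipose tissue in these values was not tested.

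**Figure D3:**
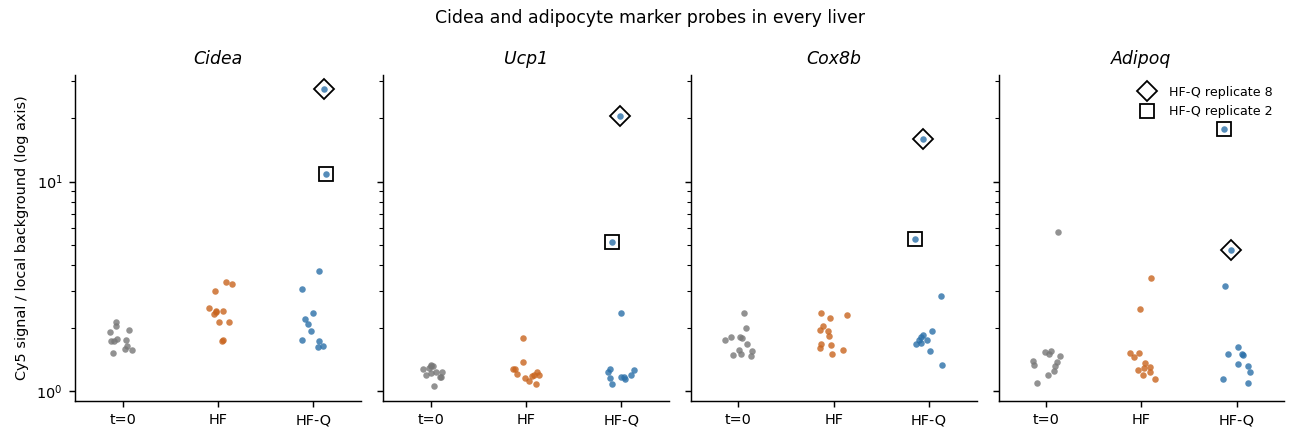
Cy5 signal divided by local background (log y axis) of the Cidea probe and of probes for the brown adipocyte genes Ucp1 and Cox8b and the adipocyte gene Adipoq in each of the 36 livers by group. The diamond marks HF-Q replicate 8, highest for Cidea (27.5), Ucp1 (20.6) and Cox8b (16.0), and the square marks HF-Q replicate 2, whose array was bright for most spots.

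The genes varied by very different amounts between livers of the same group. The pooled within-group SD (log2) was 0.74 for Cidea and for G0s2, at percentile 99.3 of all probes, 0.40 for Cidec, at percentile 96.5, and 0.33 for Adfp, at percentile 93.1. At the other end stood Cideb with 0.18, at percentile 48.1, near the median SD of all probes (0.18). The remaining genes had SDs from 0.21 (Lipc) to 0.28 (Lpl). G0s2 spread in each group, with log2 signals of 10.92 to 12.87 in the t=0 group, 11.21 to 13.99 in the HF group and 10.59 to 13.76 in the HF-Q group. In the HF group the highest liver (replicate 1) lay apart from the next, at 12.58. A G0s2 difference between groups would therefore have needed to be larger than one of Cideb to be called.

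Some pairs of these genes varied together. Over the 36 livers, with group means removed, 45 pairs of genes were correlated, and 8 pairs passed an adjusted p of 0.05 by permutation within groups for both Pearson's r and Spearman's rho. The share of all gene pairs on the array that would pass was not computed, so the count cannot be called particular to these genes. Of these 8 pairs, 6 were positive and 2 negative, and all 8 had the same sign in each of the 3 groups. The pairs were selected on the pooled values of the same livers, so the shared sign is not a separate test. The strongest pair was Adfp with its droplet partner G0s2 (r = 0.69, rho = 0.60, adjusted permutation p = 0.000225 and 0.00405), and both were highest in HF replicate 1, with 16.96 for Adfp and 13.99 for G0s2. Without the 2 livers farthest from the median of Adfp r was 0.52, and without the 3 livers that stood apart it was 0.67, in 33 livers. With slide removed as well r was 0.653, and by loess log ratios 0.625. By group it was 0.26 at t=0, 0.85 in HF and 0.75 in HF-Q.

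Cideb and Lipc were correlated as well (r = 0.68, rho = 0.64, adjusted permutation p = 0.000225 and 0.00157). Their r was 0.82 with slide removed as well, but 0.56 by loess log ratios. By group it was 0.71 in the t=0 group, 0.25 in HF and 0.84 in HF-Q. Pnpla2 and Lipe, the successive lipases of the droplet, had r = 0.64 (rho = 0.65, adjusted permutation p = 0.00105 and 0.00157). Cidec and Mgll had r = 0.58 (rho = 0.57, adjusted permutation p = 0.00387 and 0.00652), Mgll and Lipe r = 0.50 (rho = 0.49, adjusted permutation p = 0.0204 and 0.0242), and Cideb and Adfp r = 0.40 (rho = 0.44, adjusted permutation p = 0.0307 and 0.0474). The 2 livers farthest from the median of the first-named gene were left out for each pair, so that they could differ between pairs. Without them, r was 0.70 for Cideb and Lipc, 0.60 for Pnpla2 and Lipe, 0.64 for Cidec and Mgll, 0.41 for Mgll and Lipe and 0.48 for Cideb and Adfp. For the last 4 pairs, r was 0.651, 0.521, 0.474 and 0.351 with slide removed, and 0.528, 0.426, 0.496 and 0.314 by loess log ratios.

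The 2 negative pairs each joined an extracellular lipase with a gene of the droplet. G0s2 and Lpl had r = -0.55 (rho = -0.56, adjusted permutation p = 0.00387 and 0.009), with -0.71 at t=0, -0.72 in HF and -0.35 in HF-Q. Their r was -0.58 without the 2 livers farthest in G0s2, -0.466 with slide removed and -0.605 by loess log ratios. Lipe and Lipc had r = -0.54 (rho = -0.52, adjusted permutation p = 0.00849 and 0.0144), with -0.46 at t=0, -0.41 in HF and -0.70 in HF-Q. Their r was -0.44 without the 2 livers farthest in Lipe, -0.484 with slide removed and -0.566 by loess log ratios. A further pair, Mgll and Lpl (r = -0.55), passed for Pearson's r (adjusted permutation p = 0.00735) but not for Spearman's rho (-0.43, adjusted permutation p = 0.0714). All genes of a liver share its RNA and its array, and the part of these in the correlations was not tested.

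**Figure D4:**
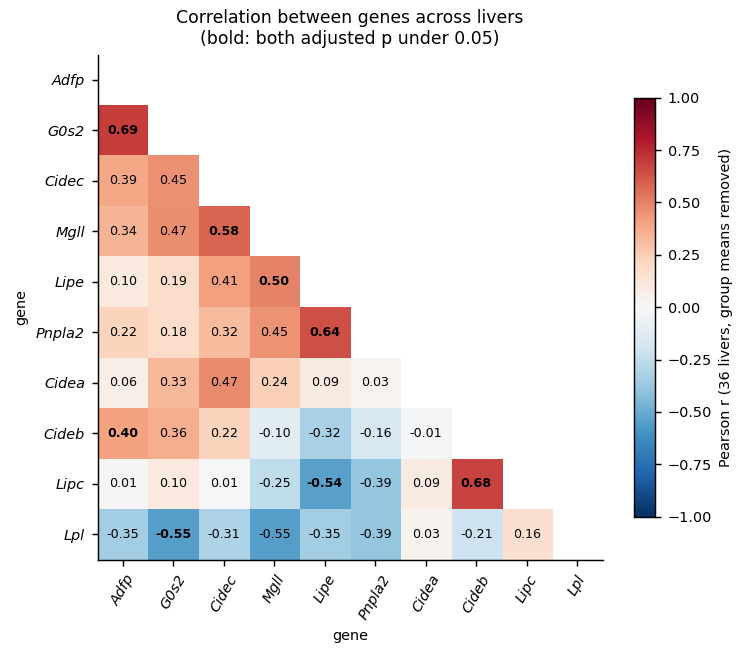
Pearson r between the brightest probes of each pair of genes over 36 livers after removal of group means (colour scale and printed value); bold values had adjusted permutation p under 0.05 for r and for rho. Adfp with G0s2 (0.69), Cideb with Lipc (0.68) and Pnpla2 with Lipe (0.64) stand out, and Lpl had its strongest negative values with G0s2 and Mgll (-0.55 for each).

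**Figure D5:**
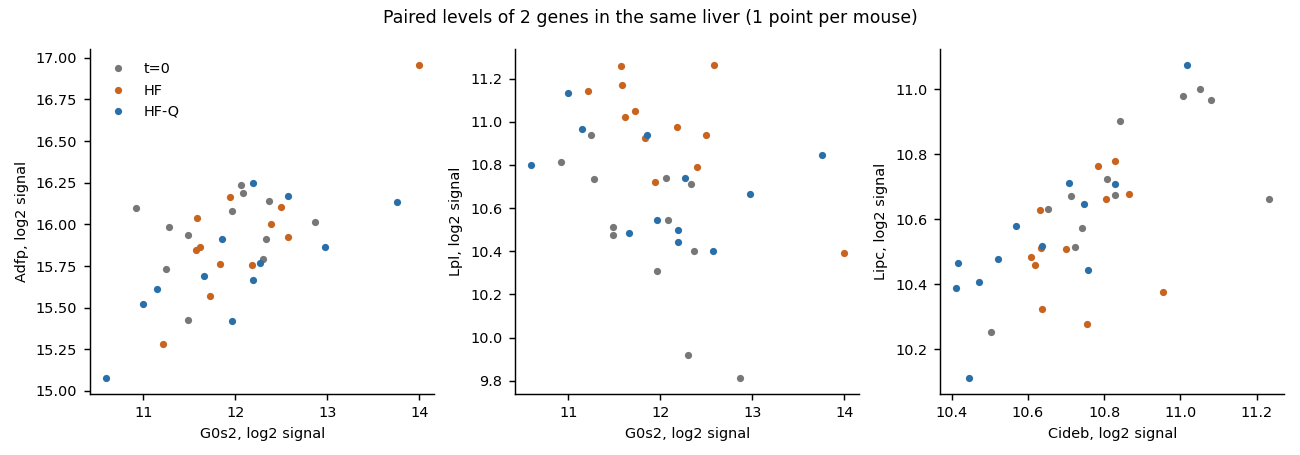
Log2 signals of Adfp against G0s2, Lpl against G0s2 and Lipc against Cideb, with 1 point per liver coloured by group. Livers with more G0s2 tended to have more Adfp and less Lpl (r = 0.69 and -0.55), and a single HF liver (replicate 1) lay at the top right of the first panel with 13.99 for G0s2 and 16.96 for Adfp.

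The promoters of the pairs Cideb and Lipc and Cidec and Mgll are shown, since the levels of these genes were correlated across livers. They are the 250 bases before the outermost start of each gene in RefSeq (build GRCm38.p6), written 5′ to 3′ on the gene's strand. The table held windows for 8 of the 10 genes (12 windows), and had none for Lpl and Cidea. Capitals mark a match, on either strand, to the E-box CACGTG, the TATA box TATAAA, the CCAAT box CCAAT or the GC box GGGCGG.
Cideb (chr14:55758425-55758674, minus strand): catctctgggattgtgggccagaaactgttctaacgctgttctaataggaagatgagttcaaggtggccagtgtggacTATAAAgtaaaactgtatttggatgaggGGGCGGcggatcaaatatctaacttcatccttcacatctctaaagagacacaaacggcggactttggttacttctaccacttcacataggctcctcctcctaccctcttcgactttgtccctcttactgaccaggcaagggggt
Lipc (chr9:70952222-70952471, minus strand): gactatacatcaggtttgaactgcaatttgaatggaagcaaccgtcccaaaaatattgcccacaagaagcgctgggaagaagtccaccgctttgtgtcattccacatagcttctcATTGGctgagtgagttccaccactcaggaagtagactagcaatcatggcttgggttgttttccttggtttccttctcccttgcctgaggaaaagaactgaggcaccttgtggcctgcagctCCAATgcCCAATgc
Cidec (chr6:113435761-113436010, minus strand): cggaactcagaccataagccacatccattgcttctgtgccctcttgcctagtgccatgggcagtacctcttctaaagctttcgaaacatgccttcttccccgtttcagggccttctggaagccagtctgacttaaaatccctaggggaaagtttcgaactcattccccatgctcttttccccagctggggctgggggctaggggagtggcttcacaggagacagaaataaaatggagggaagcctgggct
Mgll (chr6:88724162-88724411, plus strand): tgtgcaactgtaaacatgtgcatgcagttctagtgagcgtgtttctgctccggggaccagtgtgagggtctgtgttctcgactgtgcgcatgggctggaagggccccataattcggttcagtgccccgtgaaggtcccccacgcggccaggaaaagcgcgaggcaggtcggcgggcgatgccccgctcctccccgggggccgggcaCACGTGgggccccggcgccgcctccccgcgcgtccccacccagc
The Cideb window held a TATA box letter match whose first base lay at -172 from the start and a GC box match at -144. The Lipc window held 3 CCAAT box matches, at -135, -14 and -7, and the Mgll window an E-box match at -44, while the Cidec window held none of these letters. Neither pair shared a match in these windows, but a second Lipc window of the table, at an inner start, held a GC box match at -114. Among the windows not shown, that of Pnpla2 held GC box matches at -109 and -26. An inner window of Lipe, which was correlated with Pnpla2 and Mgll, held GC box matches and an E-box match at -155. Over all 32851 windows of this length in the table, 33.8% held the CCAAT letters, 32.7% the GC box, 12.4% the TATA box and 6.02% the E-box.

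The other genes of the pathway were taken from lists of 44 genes, of which 41 had a probe in the table. In HF against t=0, 9 of 41 were called, 7 higher and 2 lower. This was near the share of all probes, of which 21.3% were called, 10.9% higher and 10.4% lower. In HF-Q against HF it was 4 of 41, 3 higher and 1 lower, where 2.36% of all probes were called, 1.49% higher and 0.863% lower. In HF-Q against t=0 it was 7 of 41, 4 higher and 3 lower, where 11.9% of all probes were called, 6.62% higher and 5.3% lower. The median log2 difference of the 41 genes was 0.05, 0.00 (-0.0022) and 0.05 in these comparisons, and the 10 genes above are not among them.

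In HF against t=0, limma called 5 of the 14 genes of the lipoprotein lipase system (4 higher, 1 lower), 4 of 13 genes of intracellular lipolysis (3 higher, 1 lower) and 0 of 14 genes of the droplet coat and of droplet formation. Of all probes 21.3% were called in this comparison. Whether these short lists differ from each other or from all probes was not tested. Angptl8, a feeding-induced gene whose protein takes part in the inhibition of Lpl, was higher by 1.10 (SE 0.20, adjusted p = 0.000364, limma), and Gpihbp1, which anchors Lpl at the capillary wall, was higher by 0.21 (SE 0.06, adjusted p = 0.0165; called under 8 of 12 alternatives). Angptl4, a fasting-induced inhibitor of Lpl, had a difference of -0.63 (SE 0.23, adjusted p = 0.0477), a call kept under 8 of 12 alternatives and lost without HF replicate 5 (-0.51, adjusted p = 0.0744), with all 36 arrays in one fit (adjusted p = 0.0569), with the replicate block (0.0559) and by the methods' t-test (0.076). Apoc1, whose protein inhibits lipoprotein lipase, was higher by 0.28 (adjusted p = 0.0381), a call kept under 8 of 12 alternatives and lost by loess log ratios (0.22, adjusted p = 0.106). Of the intracellular genes, Pnpla3, the close relative of Pnpla2 that is known for its link to fatty liver, was higher by 0.99 (SE 0.29, adjusted p = 0.0165). Ddhd2, a triglyceride and phospholipid lipase, was higher by 0.29 (adjusted p = 0.0126) and Pnpla6, a lysophospholipase, by 0.18 (adjusted p = 0.0483), the latter called under 5 of 12 alternatives only. Ces1g, a carboxylesterase of the liver, had a difference of -0.46 (SE 0.10, adjusted p = 0.00239).

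In HF-Q against HF, the called genes were Vldlr, a receptor that binds triglyceride-rich lipoproteins (0.60, SE 0.13, adjusted p = 0.013, limma), Fitm2, a membrane protein of droplet formation (0.32, SE 0.08, adjusted p = 0.0389), Abhd6, a monoglyceride hydrolase (0.31, SE 0.08, adjusted p = 0.029), and Pnpla7, a lysophospholipase (-0.32, SE 0.07, adjusted p = 0.008). Fitm2 was no longer called without HF-Q replicate 2 (0.31, adjusted p = 0.0584), without HF-Q replicate 8 (0.29, adjusted p = 0.0644) or without HF replicate 5 (0.30, adjusted p = 0.0535). By the methods' t-test Fitm2 was not called either (adjusted p = 0.0574). Vldlr was dim, with mean log2 signals of 7.40, 7.48 and 8.08 in the t=0, HF and HF-Q groups. By loess log ratios Vldlr had 0.38 and was not called by limma (adjusted p = 0.0646, and 0.102 without a filter). With slide as a fixed block none of the 4 was called by limma (adjusted p of 0.0566 for Vldlr, 0.0912 for Fitm2, 0.0612 for Abhd6 and 0.0776 for Pnpla7), with differences of 0.60, 0.33, 0.33 and -0.30, and Abhd6 was not called with the replicate block (adjusted p = 0.0554). In HF-Q against t=0, Vldlr (0.68), Ddhd2 (0.39) and Hsd17b11, a droplet-bound dehydrogenase (0.35), were higher, and Bscl2, which encodes seipin (-0.27), Apoc3, whose protein slows the clearance of triglyceride-rich lipoproteins (-0.22), and Pnpla7 (-0.21) were lower, with adjusted p from 0.000272 to 0.0306 (limma).

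Abhd5 and Plin5 did not pass the test in any comparison. Abhd5, the co-activator of ATGL, had differences of 0.08 in HF against t=0, -0.18 in HF-Q against HF and -0.10 in HF-Q against t=0, with adjusted p from 0.454 to 0.638 (limma). Plin5, a perilipin of oxidative tissues, had 0.08, -0.06 and 0.01 in the same order, with adjusted p from 0.636 to 0.955.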

How the data were processed

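Each of 36 Agilent 4×44K arrays, on 9 slides of 4, carried the Cy5-labelled cRNA of 1 mouse liver and a Cy3-labelled pool of all livers. The authors deposited scanner files with the median intensity of spot and local background per channel, quantified by Agilent Feature Extraction (version 10.5.1.1 in the submitters' processing notes), and its log10 ratios. The authors also deposited a table of log2 values for 23256 spots, joined here to the scanner files by feature number. Its scale was checked: the values were log2 Cy5 minus log2 Cy3 plus the probe's mean log2 Cy3, without background subtraction (median absolute difference 0.01995 over 837216 values), and every array had the same median. Spots of a probe were averaged.

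Groups of 12 arrays were compared with limma 3.58.1 in R 4.3.3 (lmFit and eBayes, two-sided, Benjamini-Hochberg over 21781 probes, no covariates). Slides held all 3 groups. Names came from accessions for 16104 probes, from the symbol for 2485 and from a synonym for 987, and 2205 had none. The gene's value was its brightest probe. Named besides the 10 genes were the called pathway genes (1 of them, counted in its list, is not reported here by name), Plin5, Abhd5, Pnpla3 and Angptl4, and the 3 genes most like each called gene. The genes and lists were chosen with earlier results of these data known. Correlations used 100000 permutations within groups (scipy 1.17.1). Alternatives changed the values (normexp with an offset of 50 and loess, Feature Extraction ratios, median centring, quantile normalization), the filter (signal over 2 times background), the slide or replicate number as a block, the samples, the spots and the test. The fits without HF-Q replicate 8 or HF replicate 5, and the count of genes with any probe called, were added after the data had been seen. Data with 21781 probes were simulated with normal noise, and a small random part of the probes was changed. Of the changed probes, 38% of changes of 0.25 and 96% of changes of 0.5 (log2) were recovered for HF against t=0, 26% and 96% for HF-Q against HF, and 42% and 84% for HF-Q against t=0. These shares are over probes of any spread and do not hold for genes as variable as G0s2 and Cidea. Each rests on a small number of probes. Fewer probes were changed in the simulation than were called in the data, where HF against t=0 had 21.3% of all probes called. The Benjamini-Hochberg cutoff was therefore stricter in the simulation, and the shares do not give the sensitivity of the comparisons themselves. The number of arrays limits the precision.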

Additional observations from a re-analysis of the deposited data

Results flagged for a closer look

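A pair of probes of the 10 genes lay outside the authors' table and entered no comparison. On the array of HF-Q replicate 2 the Mgll probe A_52_P568977 had a Cy5 signal of 3.72 times its local background, above the highest HF array (1.92 times), and the Lipe probe A_51_P174133 had 3.0 times, above the highest HF array (1.64 times). Both signals were marked as well above background, and 96.7% of the spots of that array were.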

How the results depend on the processing

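In HF-Q against HF, 0 of 10 genes were called under any alternative, and the count over all probes was 513, or 210 with slide as a fixed block. In HF against t=0 the 2 called genes became 4 with Feature Extraction log ratios (Cidea, Lipc, Lpl and Pnpla2) and 1 with loess log ratios and no filter (Lpl), and with filtered loess or quantile values the 2 were Lpl and Lipc. In HF-Q against t=0 the 0 called genes became 1 with loess log ratios (Cidea) and 1 with Feature Extraction log ratios, quantile normalization or all 36 arrays in one fit (Cideb each). The cause was not tested.

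Signs turned for these values, none of them called. In HF-Q against HF, leaving out 1 of the 3 livers that stood apart gave -0.0342 to 0.338 for Cidea and -0.00787 to 0.0215 for Lipc, and slide as a fixed block gave 0.00399 for G0s2. In HF against t=0, Adfp had 0.0384 without HF replicate 5, and Mgll had -0.00718 with loess log ratios, with or without a filter, -0.0157 with Feature Extraction ratios and -0.00377 with quantile normalization. In HF-Q against t=0, leaving out HF-Q replicate 2 or 8 gave -0.0756 to 0.0103 for Cidec, -0.0101 to 0.153 for G0s2, -0.0413 to 0.0465 for the dimmer Lipe probe and -0.0196 to 0.0142 for Plin5. There Cidec also had -0.0826 with loess, with or without a filter, -0.0208 with Feature Extraction ratios, -0.016 with quantile normalization and -0.000838 with slide as a fixed block, and Plin5 had -0.0185, -0.00151 and -0.00447 with the last 3. Centring array medians changed nothing, since they were already equal.

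Mice of the same replicate number mostly did not deviate together: the median correlation of their deviations from the group means was -0.00971, 0.0606 and 0.0327 in HF-Q against HF, HF against t=0 and HF-Q against t=0. The highest pair had 0.151, 0.364 and 0.28, and 3, 4 and 4 of 12 pairs were over 0.1. Only 2, 3 and 1 samples correlated best with their own number. With the replicate block 360, 4636 and 2372 probes were called, and Cidec was called in HF against t=0 (-0.31, adjusted p = 0.0218, limma). Dim probes, such as Cidea and Lipe, lay near the background, which limits what their differences show.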
